A study of Mus musculus with 24 samples.

Results

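Cortex of APP/PS1 mice at 9 months was compared with cortex of APP/PS1 mice at 6 months by small RNA sequencing, with 3 mice per age. These are 6 of the 24 libraries of the study, chosen by their labels, and all names of mature miRNAs in the count table entered the comparison. The table lists 1927 names, of which 433 had enough counts to be tested, 424 of them known and 9 predicted miRNAs. The study also holds APP/PS1 mice of 1 and 3 months and wild-type (WT) mice of all 4 ages, again 3 per group, which served to estimate the spread between mice and to set the same age step in WT beside that in APP/PS1.

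APP/PS1 mice carry transgenes for mutant forms of the human amyloid precursor protein and of presenilin 1, and they deposit amyloid in the cortex as they age. The labels name the genotype as APP/PS1, without the transgene's promoter or the line, and give the strain C57BL/6 for both genotypes. Both ages compared here carry the transgenes, so the comparison is one of age within the transgenic mice. Each age group held 2 females and 1 male, and the labels do not say which library is which, so sex was not modelled. Cortex is named in the title of the series, while each sample's tissue is given as brain.

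miRNAs are short RNAs that guide Argonaute proteins to messenger RNAs, mostly through bases 2 to 8 of the miRNA, the seed. Some are made mainly in a few kinds of cell. The miRNA content of a piece of cortex therefore also depends on which cells it holds, including blood cells in its vessels, immune cells and attached choroid plexus. In bulk tissue, fewer cells of a type and less of a miRNA per cell cannot be told apart.

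Library totals of the 6 libraries lay between 3464299 and 5110883 counts. The neuronal miR-124-3p was the most abundant name in each, between 155786 and 191641 CPM (the count scaled to its library total). The oligodendrocyte marker miR-219a-5p had 0 to 1 counts per library and was not tested. Nor was miR-21a-5p, with 1 to 6 counts per library. The oligodendrocyte marker miR-338-3p, which was tested, had 4.63 to 6.35 CPM at 6 months and 5.70 to 7.06 CPM at 9 months. APP/PS1 6-month replicate 2 lay farthest from the other libraries of its group, with a root mean square distance of 0.649 on the log2 scale against 0.485 to 0.573 for the other 5. Its level of miR-125a-5p was 52175 CPM, and replicates 1 and 3 of that age had 17632 and 21514 CPM.

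The miRNAs whose change the comparison rests on are shown with their mature sequences from RefSeq (GRCm38.p6), since some of them share a seed and others match many transcripts. Capitals mark the seed. The first set fell, and belongs to red blood cells:

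miR-451a: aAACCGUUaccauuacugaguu

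miR-144-5p: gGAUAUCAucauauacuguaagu

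miR-144-3p: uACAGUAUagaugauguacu

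The second set rose. miR-100-5p is shown with the more abundant miR-99a-5p, which has the same seed and differs from it at a single base outside the seed:

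miR-100-5p: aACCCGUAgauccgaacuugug

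miR-99a-5p: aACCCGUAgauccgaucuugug

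miR-152-3p: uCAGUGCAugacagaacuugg

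miR-142a-3p: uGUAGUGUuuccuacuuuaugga

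miR-211-5p: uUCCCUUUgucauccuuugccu

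miR-199a-3p: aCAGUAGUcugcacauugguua

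The third set fell too, and its sequences occur in many annotated transcripts:

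miR-690: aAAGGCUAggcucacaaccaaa

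miR-3470b: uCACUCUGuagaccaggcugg

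miR-3471: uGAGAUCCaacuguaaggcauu

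From 6 to 9 months, 23 of the 433 tested names changed in APP/PS1 cortex (5.31%; adjusted p under 0.05 in edgeR's quasi-likelihood test), 13 higher (3.00%) and 10 lower (2.31%). Among the lower were the erythrocyte miRNAs miR-451a, miR-144 and miR-486, and among the higher miR-100-5p, miR-152-3p and the blood and immune cell miRNA miR-142a-3p. Identical counts are listed for miR-199a-3p and miR-199b-3p and for miR-486a-5p and miR-486b-5p, so the 23 names are 21 distinct measurements. The libraries of the 2 ages did not overlap in 22 of the 23, while 14.5% of all tested names had no overlap (10.6% higher, 3.93% lower). At an unadjusted p under 0.05 there were 76 names (17.6%). The median log2 fold change of all tested names was 0.04.

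These calls lean on the spread measured over all 24 libraries. With only the 6 libraries in the fit 1 name passed, miR-144-5p. With the 12 libraries of 6 and 9 months of both genotypes 2 passed, miR-144-5p and miR-451a. The filter on low counts was rerun in each fit. It removed miR-1969 from both of these fits and miR-3471 from that of the 6 libraries, so they were not tested there. Scaled to library totals alone, 18 names were higher and 8 lower, and the median of all tested names then lay at 0.12. When the 6 libraries were left out in turn, 7 of the 23 names passed every time: miR-144-5p, miR-144-3p, miR-451a, miR-100-5p, miR-152-3p, miR-1969 and miR-3470a. Relative log expression (RLE) scaling gave 15 calls and lost those of miR-142a-3p, both arms of miR-199a, miR-3470b, miR-380-5p, miR-488-3p and miR-690. The calls of miR-690 and miR-3470b were also lost with upper-quartile scaling and with library totals alone. Those of miR-142a-3p, both arms of miR-199a, miR-215-5p and miR-380-5p were lost with limma-voom. DESeq2 lost those of miR-142a-3p and miR-3471. With no filter on low counts the calls of miR-142a-3p, miR-380-5p, miR-488-3p and miR-574-5p were lost. Without the 6-month replicate 2, which stood apart, 15 names were higher and 8 lower, and 13 of the 23 calls were kept.

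**Figure D1:**
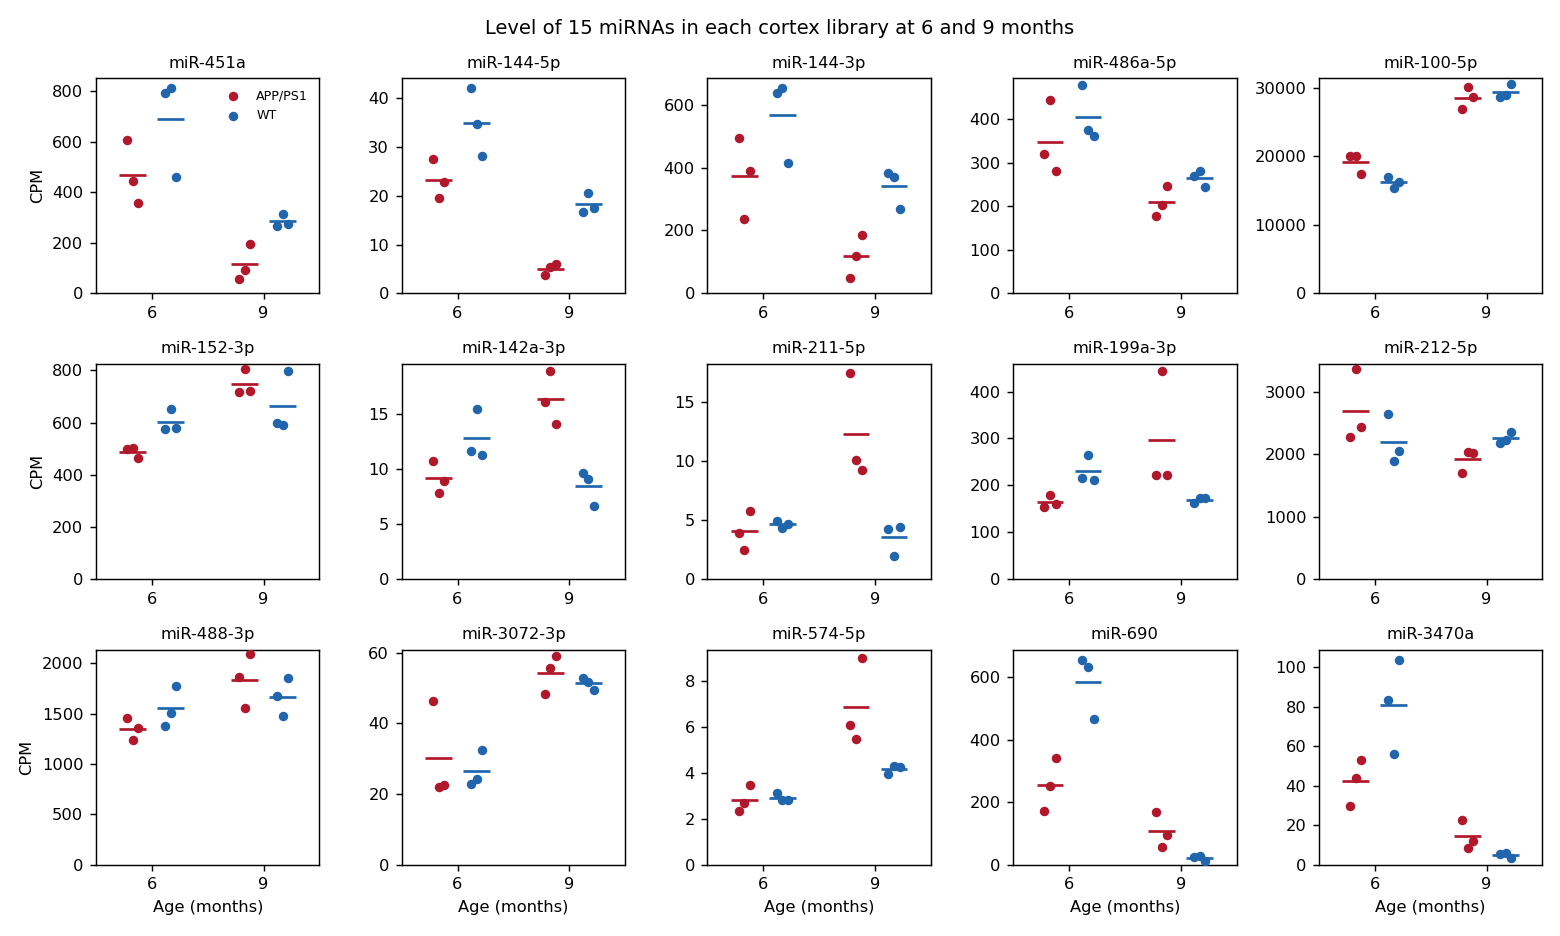
Level in CPM (linear axis from 0) of the miRNAs described in the text, in each cortex library at 6 and 9 months; points are mice, short lines are means of 3, red is APP/PS1 and blue WT. In APP/PS1 miR-451a drops from 359 to 608 CPM at 6 months to 57.5 to 194 CPM at 9 months, while miR-100-5p climbs from at most 20096 CPM to at least 26887 CPM.

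The erythrocyte miRNAs fell. miR-144 and miR-451a are made from 1 transcript in the red cell lineage, and miR-451a is matured by Argonaute 2 instead of Dicer. Mir144 (chr11:78073005-78073070) and Mir451a (chr11:78073170-78073241) lie 100 bases apart on the plus strand of GRCm38.p6. They overlap no annotated gene other than miRNA genes, which were left out of that search. miR-451a had 608, 443 and 359 CPM in the 6-month libraries and 57.5, 92.9 and 194 CPM in the 9-month libraries. Each 9-month library thus lay below each 6-month library, with the mean at 470 ± 127 CPM (SD, n = 3) and then 115 ± 70.8. The log2 fold change was -2.13 (SE 0.34, edgeR adjusted p = 0.00084).

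miR-144-5p, the other arm of the neighbouring precursor, had 27.6, 19.5 and 22.8 CPM at 6 months and 3.78, 5.48 and 5.91 CPM at 9 months. These are 300 counts in all at 6 months and 62 at 9 months, with a wide gap between the ages and little spread at 9 months. Its log2 fold change of -2.27 (SE 0.35, edgeR adjusted p = 0.00084) passed under each alternative run. miR-144-3p had 495, 237 and 388 CPM at 6 months and 47.2, 118 and 186 CPM at 9 months. The groups again did not overlap, although the highest 9-month library came close to the lowest 6-month library (log2 fold change -1.75, SE 0.37, edgeR adjusted p = 0.00609).

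miR-486a-5p and miR-486b-5p, listed at identical counts and known from red cells and muscle, went from 319, 444 and 280 CPM to 179, 204 and 247 CPM. This is a smaller step between groups that lie close to each other (log2 fold change -0.82, SE 0.19, edgeR adjusted p = 0.00991). It did not pass without the 6-month replicate 2 (-0.57, edgeR adjusted p = 0.0644) or without the 9-month replicate 1 (-0.75, edgeR adjusted p = 0.0588). The opposite arm, listed as miR-486a-3p and as miR-486b-3p at identical counts, stood between 1.01 and 2.28 CPM in the 6 libraries and had a log2 fold change of -0.08 (edgeR adjusted p = 0.936).

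Of the 7 tested names in the erythrocyte list, 5 fell and 0 rose, against 2.31% lower among all tested names, and the median log2 fold change was -0.82 against 0.04 for all. Both arms of miR-486 are listed in duplicate, and with each set of identical counts taken once 4 of 5 fell, with a median of -1.75. The summed level of the list was 1334 to 1774 CPM at 6 months and 468 to 884 CPM at 9 months, with both listed copies of miR-486 in the sum. Across the other ages of APP/PS1 mice the sum was 1532 to 2083 CPM at 1 month and 1092 to 1673 CPM at 3 months, so the 9-month libraries were the lowest of the 12. In WT the sum went from 1629 to 2437 CPM at 6 months to 1055 to 1273 CPM at 9 months. The labels describe killing by cervical dislocation and removal of the brain and do not mention perfusion, so the blood left in each sample is unknown and its part in the result was not tested.

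**Figure D2:**
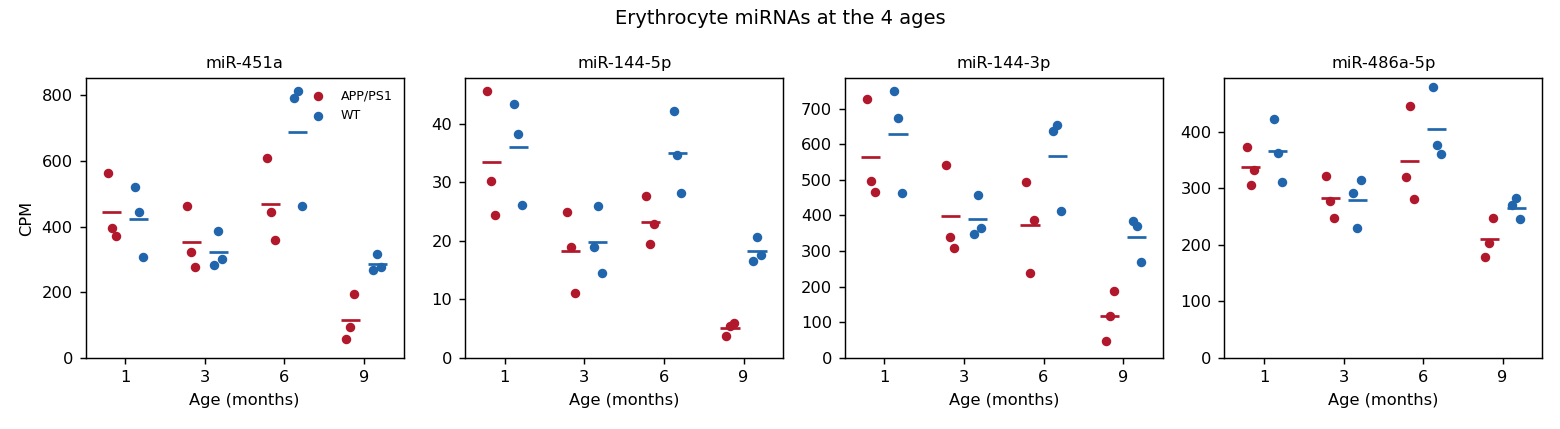
Level in CPM (linear axis from 0) of the 4 erythrocyte miRNAs with the highest counts at 1, 3, 6 and 9 months; points are mice, lines are means of 3, red is APP/PS1 and blue WT. For miR-451a and miR-144-5p the 3 APP/PS1 libraries of 9 months lie below each other APP/PS1 library, and the WT libraries of 9 months lie above them.

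No marker of the vessel wall passed the test. The endothelial miR-126a-3p had 8269, 8726 and 7936 CPM at 6 months and 7839, 8884 and 7928 CPM at 9 months (log2 fold change -0.09, SE 0.12, edgeR adjusted p = 0.795). Of the 4 tested names in the list for endothelium and vascular smooth muscle 0 passed, beside 5.31% of all tested names. With so few names, 0 is near that share. The sum of the list was 10665 to 10948 CPM at 6 months and 10472 to 11406 CPM at 9 months.

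Among the miRNAs of immune cells, miR-142a-3p rose. Its precursor, abundant in cells of haematopoietic origin and so in microglia, lies at chr11:87756864-87756927 in an intron of the noncoding Mir142hg. miR-142a-3p had 10.8, 7.80 and 8.95 CPM at 6 months and 16.1, 18.9 and 14.1 CPM at 9 months, so all 9-month libraries were higher. The log2 fold change was 0.77 (SE 0.22, edgeR adjusted p = 0.0475). This call was lost without any of the 3 libraries of 6 months or without 9-month replicate 1 or 2 (highest edgeR adjusted p = 0.208, log2 fold change 0.61, without the 9-month replicate 2).

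The more abundant arm, miR-142a-5p, had 632, 511 and 597 CPM at 6 months and 715, 878 and 696 CPM at 9 months, also without overlap (log2 fold change 0.33, SE 0.13, edgeR adjusted p = 0.162). miR-155-5p, induced when macrophages and microglia are activated, had 3.33, 5.12 and 1.44 CPM at 6 months and 9.33, 10.04 and 5.14 CPM at 9 months. The groups touch without overlapping (log2 fold change 1.22, SE 0.37, edgeR adjusted p = 0.0652), and it passed without the 6-month replicate 2 (1.68, edgeR adjusted p = 0.0146), without the 9-month replicate 3 (1.45, edgeR adjusted p = 0.0265) and scaled to library totals alone (1.28, edgeR adjusted p = 0.0382). miR-223-3p of neutrophils and other myeloid cells had 9.20, 9.996 and 5.77 CPM and then 9.58, 44.0 and 11.3 CPM, with 9-month replicate 2 far above the rest and the others overlapping (edgeR adjusted p = 0.0849).

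Of the 9 tested immune names 1 rose and 0 fell, against 3.00% higher among all tested names, and the median was 0.25 with values from -1.08 to 1.33. The 4 members below 0 were both arms of miR-146b and both arms of miR-150, the latter a lymphocyte miRNA. The inflammation-linked miR-146a-5p had a log2 fold change of 0.25 (SE 0.17, edgeR adjusted p = 0.529). The sum of the list, most of it miR-146b-5p, was 5950 to 7102 CPM at 6 months and 6003 to 6558 CPM at 9 months.

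miR-199a rose in both arms, and the same 9-month replicate 2 was high. This miRNA is known from mesenchymal cells and comes from Mir199a-2 (chr1:162217814-162217923, within an exon of Dnm3os, opposite Dnm3) and Mir199a-1 (chr9:21496495-21496564, opposite an intron of Dnm2). The 3p sequence is shared with miR-199b-3p of Mir199b (chr2:32318460-32318569, opposite an intron of Dnm1), so its counts cannot be assigned to 1 precursor. The other arm of Mir199b, miR-199b-5p, had a log2 fold change of 0.42 (SE 0.34, edgeR adjusted p = 0.599). miR-199a-3p, listed with miR-199b-3p at identical counts, had 154, 180 and 159 CPM at 6 months and 223, 444 and 222 CPM at 9 months. The 3 libraries of 9 months were above those of 6 months, 1 of them by far (log2 fold change 0.79, SE 0.22, edgeR adjusted p = 0.0448). Without the 9-month replicate 2 the value was 0.31 (edgeR adjusted p = 0.372), and the call was also lost without 6-month replicate 1 (0.68, edgeR adjusted p = 0.142) or 3 (0.76, edgeR adjusted p = 0.103).

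miR-199a-5p had 208, 201 and 176 CPM at 6 months and 292, 580 and 255 CPM at 9 months, again with 1 library far above the others (log2 fold change 0.90, SE 0.26, edgeR adjusted p = 0.0475). It came to 0.38 (edgeR adjusted p = 0.372) without the 9-month replicate 2, and the call was also lost without any of the 6-month libraries (highest edgeR adjusted p = 0.125) and with the replicate block (a fit with the replicate number as a factor). miR-214-3p, whose precursor lies 5445 bases from Mir199a-2, had 2.27, 8.90 and 2.57 CPM at 9 months and 1.76, 1.22 and 3.18 CPM at 6 months (log2 fold change 1.16, SE 0.55, edgeR adjusted p = 0.274). It too was highest in the 9-month replicate 2.

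miR-211-5p, made from an intron of Trpm1 (chr7:64205806-64205911) and abundant in pigmented cells and in choroid plexus, rose. It had 3.91, 2.44 and 5.77 CPM at 6 months and 17.4, 10.04 and 9.26 CPM at 9 months, clear of each other (log2 fold change 1.54, SE 0.39, edgeR adjusted p = 0.0225). The call was lost without the 9-month replicate 1 (1.17, edgeR adjusted p = 0.164) and without the 6-month replicate 1 (1.46, edgeR adjusted p = 0.0629) or 2 (1.30, edgeR adjusted p = 0.0799). miR-204-5p, the main choroid plexus miRNA, which has the same seed, had 222, 310 and 246 CPM and then 435, 290 and 371 CPM. Its groups overlapped (log2 fold change 0.41, SE 0.26, edgeR adjusted p = 0.482). Of the 4 tested names of the choroid plexus and ependyma list 1 rose and 0 fell, against 3.00% higher and 2.31% lower among all tested names, all 4 values were above 0, and the sum was 237 to 318 CPM at 6 months and 305 to 458 CPM at 9 months. The part of attached choroid plexus in the rise of miR-211-5p was not tested.

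miR-215-5p stood out in a single mouse. Its precursor lies at chr1:185313581-185313692, within an exon of the noncoding 2010103J01Rik and opposite an intron of Iars2, and the miRNA is known from intestine and kidney. It had 1.57, 5.61 and 2.02 CPM at 6 months and 321, 5.48 and 5.66 CPM at 9 months, so that the groups overlapped and the log2 fold change of 5.11 (SE 1.10, edgeR adjusted p = 0.00668) came from 9-month replicate 1. Without that library it was 0.74 (edgeR adjusted p = 0.609). The same library was the highest for miR-192-5p, which has the same seed, at 1601 CPM against 751 and 762 in the other 9-month libraries, and for miR-194-5p, whose precursor lies 196 bases from Mir215, at 479 CPM against 259 and 262. Neither of these passed (log2 fold changes 0.32 and 0.39, edgeR adjusted p = 0.489 and 0.218).

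miR-100-5p rose with little spread within each age. It belongs to the miR-99 and miR-100 family, described as acting on Mtor transcripts, and lies at chr9:41531425-41531504 in introns of the noncoding 3110039I08Rik and Gm49317. It had 20048, 20096 and 17356 CPM at 6 months and 26887, 30068 and 28692 CPM at 9 months, with all 9-month libraries well above. The log2 fold change was 0.50 (SE 0.09, edgeR adjusted p = 0.00292). miR-99a-5p, of the same seed, had 87207 to 93555 CPM at 6 months and 85695 to 95945 CPM at 9 months (log2 fold change -0.05, SE 0.11, edgeR adjusted p = 0.881), and miR-99b-5p had -0.26 (SE 0.10, edgeR adjusted p = 0.187). At 3 months miR-100-5p stood at 22424, 22784 and 26325 CPM in APP/PS1, between the values of the 2 later ages.

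miR-152-3p, from an intron of Copz2 (chr11:96850393-96850465) and described as acting on Dnmt1 transcripts, had 497, 503 and 466 CPM at 6 months and 717, 807 and 721 CPM at 9 months. The spread within each age was small beside the step between them (log2 fold change 0.54, SE 0.11, edgeR adjusted p = 0.00609). Its relatives with the same seed, miR-148a-3p and miR-148b-3p, had -0.07 (SE 0.16) and -0.09 (SE 0.08) and did not pass (edgeR adjusted p = 0.886 and 0.66). The opposite arm miR-152-5p had 0.41 (SE 0.22, edgeR adjusted p = 0.353).

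Other miRNAs rose by less or at low counts. miR-488-3p, from an intron of the neuronal gene Astn1 (chr1:158505625-158505733), had 1457, 1237 and 1361 CPM at 6 months and 1863, 1559 and 2089 CPM at 9 months (log2 fold change 0.36, SE 0.10, edgeR adjusted p = 0.0396). Its groups lay close together, and of the libraries left out in turn, each but the 9-month replicate 2 ended the call when missing (highest edgeR adjusted p = 0.21, log2 fold change 0.27, without the 9-month replicate 3). miR-574-5p, from an intron of Fam114a1, had 2.35, 2.68 and 3.46 CPM at 6 months and 6.05, 5.48 and 9.00 CPM at 9 months (log2 fold change 1.20, SE 0.25, edgeR adjusted p = 0.00609), and just failed without the 9-month replicate 3 (0.97, edgeR adjusted p = 0.0533). miR-1969 had 2 counts over the 6-month libraries and 28 over those of 9 months, a ratio per library total of 14.5 with an exact 95% interval of 3.66 to 125.6 that covers counting error only (edgeR adjusted p = 0.00562). Its 3-month APP/PS1 libraries had 2.53, 4.11 and 2.32 CPM, so the 6-month libraries were the low ones.

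Of the 89 tested names of the imprinted Dlk1-Dio3 locus, a large miRNA cluster that is active in neurons, 2 rose and 0 fell, against 3.00% and 2.31% among all tested names. The median was 0.09 beside 0.04 for all. miR-3072-3p (Mir3072, chr12:109747878-109747960, within an exon of Mirg) had 46.2, 21.9 and 22.5 CPM at 6 months and 48.4, 55.7 and 58.9 CPM at 9 months (log2 fold change 0.77, SE 0.19, edgeR adjusted p = 0.0225). The 6-month replicate 1 lay near the 9-month values and the other 2 well under them. The call was lost without 6-month replicate 2 (0.61, edgeR adjusted p = 0.0847) or 3 (0.63, edgeR adjusted p = 0.082) and without 9-month replicate 2 (0.72, edgeR adjusted p = 0.0647) or 3 (0.73, edgeR adjusted p = 0.0656).

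miR-380-5p (Mir380, chr12:109711803-109711863), described as a repressor of p53, had 35.6, 39.0 and 26.6 CPM at 6 months and 49.7, 44.3 and 65.3 CPM at 9 months (log2 fold change 0.56, SE 0.16, edgeR adjusted p = 0.0448). These groups did not overlap, but the call was lost without 6-month replicate 1 (0.53, edgeR adjusted p = 0.115) or 3 (0.42, edgeR adjusted p = 0.188) and without 9-month replicate 1 (0.57, edgeR adjusted p = 0.101) or 3 (0.40, edgeR adjusted p = 0.236). Within 10 kb of their precursors lay 22 tested names beside Mir380 and 15 beside Mir3072, of which 0 passed, with medians of 0.07 and 0.05.

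miR-212-5p, of the activity-regulated miR-212 and miR-132 pair, fell. It had 2282, 3359 and 2440 CPM at 6 months and 1703, 2042 and 2013 CPM at 9 months (log2 fold change -0.57, SE 0.16, edgeR adjusted p = 0.0401). The 6-month replicate 2 was the highest library, and without it the value was -0.36 (edgeR adjusted p = 0.109). The call was also lost without 9-month replicate 1 (-0.53, edgeR adjusted p = 0.138) or 3 (-0.61, edgeR adjusted p = 0.0656). The opposite arm miR-212-3p (-0.22, edgeR adjusted p = 0.428) and both arms of miR-132, whose precursor lies 204 bases away (-0.29 and -0.09 for miR-132-5p and miR-132-3p), did not pass. In the activity-regulated list 1 of 8 names fell and 0 rose, beside 2.31% lower and 3.00% higher among all tested names.

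**Figure D3:**
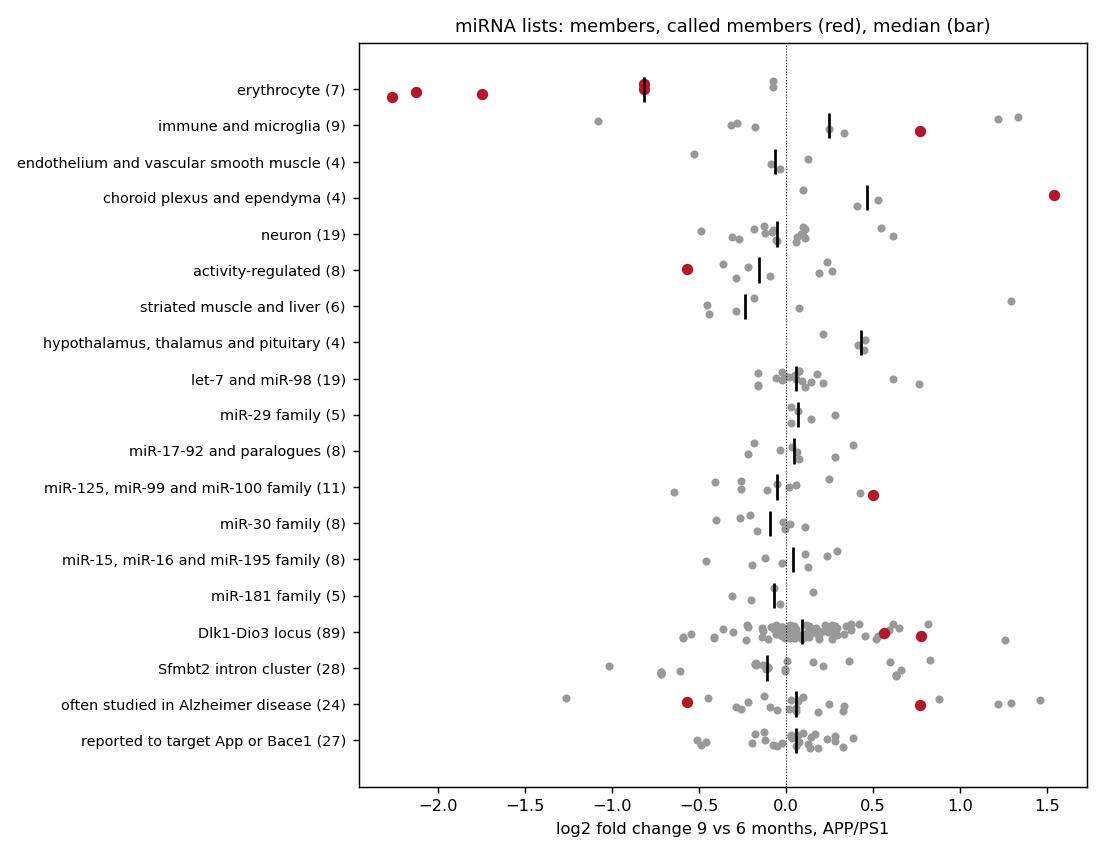
Log2 fold change from 6 to 9 months in APP/PS1 cortex of each tested member of the lists with at least 4 tested members (number in brackets); red points have an adjusted p under 0.05 and bars are medians. The erythrocyte list holds 5 of its 7 members in red, all below 0, while neuron, let-7 and miR-29 members hold 0 red points. Of all tested names 5.31% passed.

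Most lists held no member that passed, beside 5.31% of all tested names. At that share a count of 0 in lists this short is near the background. Of 19 tested neuronal names, among them miR-124, miR-128, miR-9 and miR-138, 0 passed, with values from -0.49 to 0.62 and a median of -0.05. The let-7 list (19 names), the miR-29 family (5), the miR-17-92 cluster with its paralogues (8), the miR-30 family (8), the miR-181 family (5), the miR-15 and miR-16 family (8), the list of striated muscle and liver (6), the Sfmbt2 intron cluster (28) and a list of miRNAs described as acting on App or Bace1 transcripts (27) likewise had 0 members passing. Of 4 tested names of hypothalamus, thalamus and pituitary 0 passed, though all 4 lay above 0 with a median of 0.43, and of 2 tested names of the miR-34 list 0 passed, with a median of -0.86. A p above the threshold does not show that these miRNAs stayed the same. The 5 most abundant names, miR-124-3p, miR-26a-5p, miR-99a-5p, miR-125b-5p and miR-9-5p, had log2 fold changes of -0.05, -0.08, -0.05, -0.26 and 0.10.

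Among 24 tested names of miRNAs often studied in Alzheimer disease, 1 rose (miR-142a-3p) and 1 fell (miR-212-5p), near the 3.00% higher and 2.31% lower of all tested names, with a median of 0.06. miR-107-3p, reported to target Bace1, had 350, 218 and 295 CPM at 6 months and 386, 369 and 381 CPM at 9 months. Its 9-month libraries were alike and above each 6-month library (log2 fold change 0.33, SE 0.11, edgeR adjusted p = 0.109), and it passed without the 6-month replicate 1 (0.42, edgeR adjusted p = 0.0372). miR-29c-3p (0.03, SE 0.09), miR-34a-5p (-0.45, SE 0.39) and miR-132-3p (-0.09, SE 0.19) did not pass. miR-125b-5p had 53455, 99804 and 67329 CPM at 6 months and 62817 to 69409 CPM at 9 months, with the 6-month replicate 2 far above. Its value of -0.26 (SE 0.16, edgeR adjusted p = 0.467) was 0.05 without that library and -0.51 (edgeR adjusted p = 0.0261) without the 6-month replicate 1.

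Names whose counts were raised at 6 months in WT were followed in APP/PS1. Names were taken that were higher at 6 than at 3 months in WT by over 2 on the log2 scale with an adjusted p under 0.05, a contrast between WT groups. There were 8: miR-690, miR-3470a, miR-3470b, miR-3471, miR-1957a, miR-1195, miR-6481 and a predicted miRNA. Of these, 4 fell in APP/PS1 and 0 rose, beside 2.31% lower among all tested names. In the APP/PS1 libraries they summed to 350.8, 499.8 and 659.3 CPM at 6 months and to 337.1, 127.3 and 189.0 CPM at 9 months. At 3 months the APP/PS1 sums were 26.7 to 57.7 CPM, so the 9-month libraries remained above that age. The predicted miRNA followed miR-690, with 509, 645 and 691 counts in the 6-month APP/PS1 libraries beside 873, 1036 and 1180. Both names enter these sums, and whether they share reads was not tested.

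miR-690 (Mir690, chr16:28599935-28600043, in an intron of Fgf12) had 171, 253 and 341 CPM at 6 months and 170, 57.5 and 94.1 CPM at 9 months. The lowest 6-month and the highest 9-month library were all but equal (log2 fold change -1.34, SE 0.39, edgeR adjusted p = 0.0482), and the call was lost without 6-month replicate 2 (-1.34, edgeR adjusted p = 0.0799) or 3 (-1.09, edgeR adjusted p = 0.163) and without 9-month replicate 2 (-1.07, edgeR adjusted p = 0.208) or 3 (-1.27, edgeR adjusted p = 0.177). miR-3470a had 29.9, 43.6 and 53.1 CPM and then 22.7, 8.44 and 12.1 CPM (log2 fold change -1.63, SE 0.33, edgeR adjusted p = 0.00562). Its ages were apart in each library.

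miR-3470b had 16.8, 30.0 and 32.6 CPM and then 16.6, 6.85 and 9.26 CPM (log2 fold change -1.36, SE 0.39, edgeR adjusted p = 0.0475), again with a pair of all but equal libraries. Its call was lost without 6-month replicate 2 or 3 or 9-month replicate 2 or 3 (highest edgeR adjusted p = 0.189, without the 9-month replicate 2). miR-3471 had 29 counts over the 6-month libraries and 5 over those of 9 months (log2 fold change -2.49, SE 0.68, edgeR adjusted p = 0.0419), and its call was lost without 6-month replicate 3 or 9-month replicate 1 or 2 (highest edgeR adjusted p = 0.15, without the 9-month replicate 2). The other 4 names did not pass, with miR-1957a at -0.83, miR-1195 at -0.44, miR-6481 at -1.34 and the predicted miRNA at -1.19.

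The sequences of this group were also compared with annotated transcripts. The mature sequences of 358 of the 424 known tested miRNAs were found in RefSeq and searched for as exact matches in GENCODE M21 transcripts. The median sequence matched transcripts of 1 gene on the sense strand, and 4 of the 358 (1.12%) matched 10 or more genes. miR-3470b, with 591 genes, miR-3471, with 86, and miR-690, with 19, were 3 of these 4. The other was miR-3473a, with 148, which is not in this group. Within the group miR-1195 matched 1 gene and miR-6481 matched 2, and miR-3470a, miR-1957a and the predicted miRNA were not among the sequences searched. miR-451a, miR-144-5p, miR-100-5p and miR-1969 matched 1 each. Reads with the letters of miR-3470b, miR-3471 or miR-690 can therefore come from several places in the genome. How the authors assigned such reads is not given in the sources used here.

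**Figure D4:**
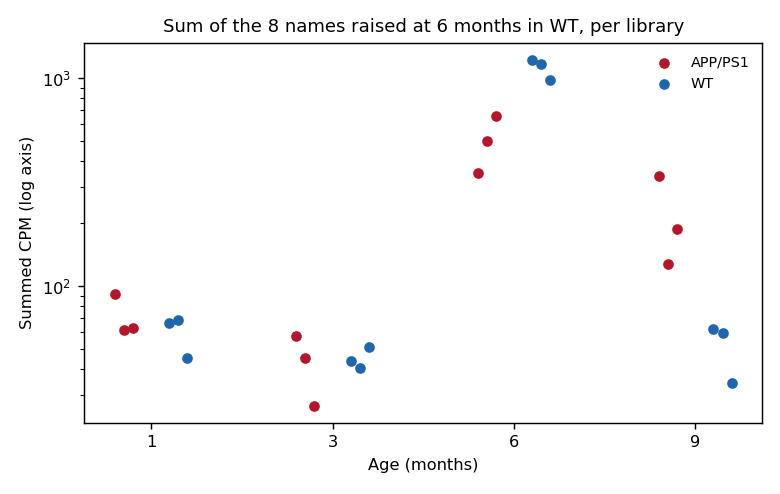
Summed CPM (log axis) of the 8 names raised at 6 months in WT, in each library of APP/PS1 (red) and WT (blue) at 1, 3, 6 and 9 months; each point is a mouse. APP/PS1 libraries of 6 months reach 350.8 to 659.3 CPM and those of 9 months 127.3 to 337.1 CPM. The names were chosen for their high WT level at 6 months, so the height of those WT points is set by the choice.

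The same age step was then measured in WT cortex, whose libraries are separate from those of APP/PS1. There 14 names changed (3.23%), 5 higher (1.15%) and 9 lower (2.08%). Of these, 8 also changed in APP/PS1, all 8 in the same direction: miR-451a, miR-100-5p, miR-1969, miR-3072-3p, miR-3470a, miR-3470b, miR-3471 and miR-690. Of the 23 names that changed in APP/PS1, 16 had the same sign in WT, beside 64.4% of all tested names.

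The erythrocyte miRNA miR-451a fell in both genotypes. It had 689 ± 197 CPM at 6 and 286 ± 26.2 CPM at 9 months in WT (SD, n = 3 each; log2 fold change -1.23, SE 0.33, edgeR adjusted p = 0.0422). miR-144-5p had 35.0 ± 7.02 and 18.2 ± 2.08 CPM in WT (log2 fold change -0.89, SE 0.30, edgeR adjusted p = 0.134). The fall in APP/PS1 was larger by 0.89 on the log2 scale for miR-451a (SE 0.46) and by 1.38 for miR-144-5p (SE 0.46), and neither difference passed (edgeR adjusted p = 0.624 and 0.202). miR-100-5p rose from 16230 CPM, the middle WT library of 6 months, to 28941 CPM, the middle one of 9 months (log2 fold change 0.91, SE 0.09, edgeR adjusted p = 3.23e-07), and its difference of -0.40 between genotypes (SE 0.13) did not pass (edgeR adjusted p = 0.171).

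**Figure D5:**
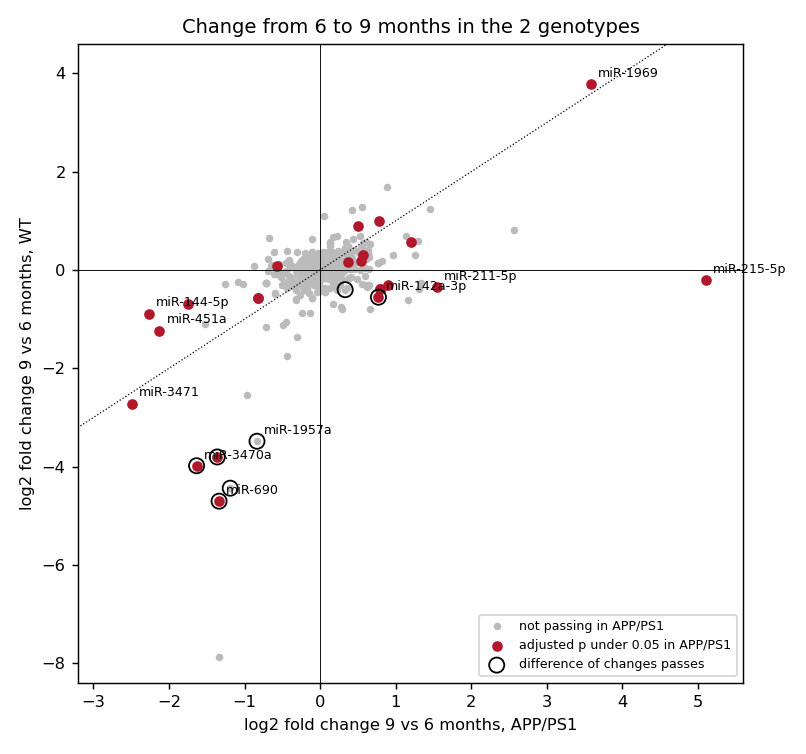
Log2 fold change from 6 to 9 months in APP/PS1 (x axis) against that in WT (y axis) for the 433 tested names; red points passed in APP/PS1, circles mark names whose change differed between genotypes, and the dotted line marks equal change. miR-690 and miR-3470a lie far below the line, at -4.70 and -3.98 in WT, while miR-451a and miR-144-5p lie above it.

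The change from 6 to 9 months differed between the genotypes for 7 names (1.62%; edgeR's quasi-likelihood test of the difference of changes). For 5 of them, which belong to the names raised at 6 months, the WT value was the more negative. The WT 6-month libraries that chose those names also enter this difference, although the test ran over all 433 names. miR-690 fell in WT from 656, 633 and 467 CPM to 24.8, 27.4 and 13.5 CPM, by 4.70 on the log2 scale, and the difference to APP/PS1 was 3.37 (SE 0.57, edgeR adjusted p = 0.00164). The difference was 2.35 for miR-3470a (SE 0.48, edgeR adjusted p = 0.0107), 2.44 for miR-3470b (SE 0.58, edgeR adjusted p = 0.0311), 2.65 for miR-1957a (SE 0.60, edgeR adjusted p = 0.0268) and 3.25 for the predicted miRNA (SE 0.55, edgeR adjusted p = 0.00164). The predicted miRNA followed miR-690 in its counts, so it may not be a separate result.

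The other 2 were the arms of miR-142a, and the WT 6-month libraries enter these differences as well. In WT miR-142a-5p was higher at 6 than at 3 months, by less than the cutoff used above (log2 fold change 0.45, SE 0.13, edgeR adjusted p = 0.0366). miR-142a-3p had 0.38 in that contrast (SE 0.23, edgeR adjusted p = 0.538). In WT miR-142a-5p had 761, 644 and 616 CPM at 6 months and 507, 514 and 464 CPM at 9 months, the opposite order to APP/PS1. The WT step itself did not pass (log2 fold change -0.40, SE 0.13, edgeR adjusted p = 0.105), and the difference between genotypes was 0.73 (SE 0.18, edgeR adjusted p = 0.0328). miR-142a-3p had 11.7, 15.5 and 11.2 CPM and then 9.66, 9.13 and 6.66 CPM in WT (log2 fold change -0.55, SE 0.23, edgeR adjusted p = 0.255), with a difference of 1.33 (SE 0.32, edgeR adjusted p = 0.0311). Each of these 2 differences passed in 5 of 12 fits that left out 1 of the 12 libraries (highest edgeR adjusted p = 0.121 for miR-142a-5p and 0.149 for miR-142a-3p, both without WT 9-month replicate 3). miR-199a-3p (1.19, SE 0.32, edgeR adjusted p = 0.0568) and miR-211-5p (1.89, SE 0.57, edgeR adjusted p = 0.138), which rose in APP/PS1 and had values of -0.40 and -0.35 in WT, did not pass that test.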

How the data were processed

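The deposited table holds raw counts per mature miRNA name for 24 libraries. Per the labels' protocols, libraries were made with a TruSeq small RNA kit and read on a HiSeq 2500; cutadapt 1.14 kept reads of 17 to 35 bases, Trimmomatic 0.36 removed low-quality reads, BLAST 2.6.0 removed other RNA families and repeats, and names came from miRBase 21.0 and miRDeep2 2.0.0.8. Which tool counted reads, how reads matching several names were treated and which genome build was used is not given in the sources used here. Per the submitters' processing notes edgeR was used.

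Counts were matched to libraries by description, filtered with filterByExpr at a minimum count of 10 and a minimum total of 15, and TMM-scaled. The quasi-likelihood model of edgeR 4.0.16, run in R 4.3.3, had 1 mean per group for 8 groups, 16 residual and 4.64 prior degrees of freedom and a common biological coefficient of variation of 18.6%. Benjamini-Hochberg adjustment ran over the 433 names. The names left out held 0.0117% to 0.0159% of the counts of the 6 libraries. CPM use library totals, fold changes the TMM scaling (factors 0.884 to 1.03 in the 6 libraries). The SE of a log2 fold change is its absolute value over the root of the F statistic. The fit was tested on simulated counts with 1 spread per name for all 8 groups. That simulation left out the unequal spread of the groups given below. The low depth of names at a few CPM limits their precision, and intervals cover counting error only. P-values measure the spread between the 3 samples per group, which the series text calls mice, pooled over the 8 groups. Within groups, the chi-square of the counts per degree of freedom was 593 in APP/PS1 at 6 months and 59.0 to 114 in the other groups. The pooled spread can therefore understate that of the APP/PS1 6-month group.

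Named were the 12 higher and 12 lower with the smallest p among passing names without overlap, up to 4 passing members per list, the Alzheimer panel, the 5 most abundant, and for the difference of changes the 6 with the smallest p; relatives by seed, arm or position, list markers such as miR-126a-3p and miR-223-3p, the other names raised at 6 months and miR-125a-5p were named after their values were seen. Members and lists were chosen with earlier results of these data known. Alternatives were other scalings, filters, tools (DESeq2 1.42.0, limma 3.58.1), fewer libraries in the fit, the replicate number as a block, and leaving out each library. mRNA data were not analysed here.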

Additional observations from a re-analysis of the deposited data

Results flagged for a closer look

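For 7 miRNAs the change from 6 to 9 months in APP/PS1 cortex differed from the change over the same ages in WT, by edgeR's quasi-likelihood test of the difference of changes with Benjamini-Hochberg adjustment. All 7 differences, APP/PS1 minus WT, were positive. They came to 3.37 for miR-690 (edgeR adjusted p = 0.00164), 3.25 for a predicted miRNA (edgeR adjusted p = 0.00164), 2.35 for miR-3470a (edgeR adjusted p = 0.0107), 2.65 for miR-1957a (edgeR adjusted p = 0.0268), 2.44 for miR-3470b (edgeR adjusted p = 0.0311), 1.33 for miR-142a-3p (edgeR adjusted p = 0.0311) and 0.73 for miR-142a-5p (edgeR adjusted p = 0.0328) on the log2 scale. In 12 fits that left out 1 library each, miR-690 and the predicted miRNA passed in all 12, miR-3470a in 8, miR-3470b and both arms of miR-142a in 5 each, and miR-1957a in 4. The highest adjusted p of each came without WT 9-month replicate 3. The 5 largest belong to names raised at 6 months in WT, and the WT 6-month libraries that show the raise also enter the difference. Those libraries were also higher than the WT 3-month ones for miR-142a-5p (log2 fold change 0.45, edgeR adjusted p = 0.0366). Where these counts come from at 6 months in both genotypes was not tested. The predicted miRNA followed miR-690 in its counts, so these names may not be separate results.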

How the results depend on the processing

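The count of 23 names called (13 higher, 10 lower) was 15 with RLE scaling (7 higher), 39 with no filter on low counts (21 higher, 18 lower), 7 higher with limma-voom, 1 with the 6 libraries alone (0 higher, 1 lower) and 2 with the 12 libraries of 6 and 9 months (0 higher, 2 lower). The settings within 1.5 times of it gave 18 to 26 calls. Leaving out 1 library gave 14 to 27 calls, 7 to 15 higher and 7 to 16 lower. The lowest count came without the 6-month replicate 3 and the highest without the 6-month replicate 1. None of the 23 changed sign in these fits. In WT the 14 calls became 32 with no filter and 9 at a mean of at least 10 CPM. The 7 differences between genotypes became 23 with no filter, 2 with the 12 libraries, and 2 to 10 when 1 library was left out. With the replicate number as a block 23 names were called, 22 of them shared, and miR-199a-5p was lost (edgeR adjusted p = 0.0632). Same-numbered libraries of 6 and 9 months deviated from their group means with correlations of -0.38 to -0.14 over 3 pairs. Pairs with unlike numbers had correlations of -0.0070 to 0.30. So few values cannot show whether the numbers carry a pairing.

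Reversals concerned uncalled names, whose log2 fold changes before any change of setting ran from -0.26 for miR-125b-5p to 0.19 for miR-101a-3p. With library totals alone miR-124-3p came to 0.023 and miR-99a-5p to 0.022. miR-125b-1-3p came to -0.024 with RLE scaling, -0.0058 with no filter, -0.016 at 10 CPM, -0.021 with DESeq2, -0.014 with 6 libraries and -0.0058 with 12. miR-29c-3p came to -0.0065 with RLE scaling, -0.0064 with DESeq2 and -0.0058 with 6 libraries. With 1 library left out the values spanned -0.0078 to 0.26 for miR-101a-3p, -0.093 to 0.14 for miR-124-5p, -0.12 to 0.019 for miR-124-3p, -0.51 to 0.049 for miR-125b-5p, -0.17 to 0.22 for miR-125b-1-3p, -0.062 to 0.11 for miR-125b-2-3p, -0.34 to 0.17 for miR-132-3p, -0.025 to 0.15 for miR-29c-5p, -0.053 to 0.070 for miR-29c-3p and -0.083 to 0.19 for miR-9-5p. The cause was not tested. Depth limits names of a few CPM, such as miR-1969 and miR-3471.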

Other observations

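The arms of miR-342 varied among the 6-month libraries. miR-342-3p, made from an intron of Evl, had 5229, 915 and 710 CPM in APP/PS1 at 6 months and 3846, 3673 and 5452 CPM at 9 months. The 6-month replicate 1 lay within the 9-month range and the other 2 far below it. The log2 fold change was 0.88 (edgeR adjusted p = 0.407), and without that library it was 2.25 (edgeR adjusted p = 0.00174). In WT, 6-month libraries had 768, 2867 and 827 CPM and 9-month libraries 5049, 5266 and 3675 CPM, while the 3-month APP/PS1 libraries had 4143, 4477 and 3507 CPM. miR-342-5p had 7.44, 2.44 and 2.31 CPM in APP/PS1 at 6 months and 12.9, 8.90 and 14.9 CPM at 9 months, without overlap (log2 fold change 1.46, edgeR adjusted p = 0.0652). These values were chosen after they were seen, and the cause of the spread was not tested.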
